A study of Mus musculus with 4 samples.

Results

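The Id, E protein and Runx genes form 3 small families of transcriptional regulators that were followed here in group 3 innate lymphoid cells (ILC3s) with and without Brg1. The genes were chosen by symbol: Id1, Id2 and Id3, the E protein genes Tcf3, Tcf4 and Tcf12, and Runx1, Runx2 and Runx3 with their shared partner Cbfb. All 10 had a value in the deposited table, which lists 53379 genes. Each value is listed as an FPKM. By definition, this is the number of fragments assigned to a gene, scaled to the length of its transcripts and to library size. The values also look quantile normalized, as described below.

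The cells came from mixed bone marrow chimeras. Thy1.2 Rag1-/- Smarca4f/f marrow gave the Brg1-sufficient ILC3s, and marrow of Thy1.1 Thy1.2 Rag1-/- Smarca4f/f donors whose ILC3s delete the floxed gene gave the Brg1-deficient ILC3s, with both transferred together into irradiated Rag2-/- Il2rg-/- hosts. All donors therefore lacked Rag1 and carried the floxed Smarca4 allele, and the hosts lacked Rag2 and the common gamma chain. After 6 to 7 weeks, ILC3s were sorted from the small intestinal lamina propria as Thy1.2 high CD45 low cells, negative for Thy1.1 when Brg1-sufficient and positive when Brg1-deficient. The Thy1 allele thus went with the genotype and cannot be told apart from it. Libraries were biological duplicates, 2 per group, and the sources used here give neither the donors' ages nor whether the libraries came from separate hosts.

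Id proteins carry a helix-loop-helix domain but cannot bind DNA. They pair with E proteins, which do bind DNA at E-box motifs, and so hold them off their targets. Id2 is required for all innate lymphoid cell lineages, whereas E proteins drive early T and B cell development, and Tcf4 is the E protein that plasmacytoid dendritic cells depend on. Runx proteins bind DNA together with Cbfb, which has no DNA contact of its own. Runx3 is known for its roles in NK cells, CD8 T cells and in ILC1 and ILC3 development, Runx1 in blood stem cells and lymphocytes, and Runx2 in bone as well as in lymphocytes. BRG1, the product of Smarca4, is an ATPase of the SWI/SNF complexes that move nucleosomes.

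The Runx genes share more than a protein fold. Runx1, Runx2 and Runx3 each have a promoter window in RefSeq (GRCm38.p6, from 250 bases before to 50 bases after the annotated start) that holds a pair of Runx-type motifs of the same spacing. They are shown because no other member with such a window carried the pair. The Runx genes are also compared with each other in the results that follow. Each line gives 30 bases, 5′ to 3′ on the strand of the gene, with the pair of ACCACA motifs in capitals.
Runx1: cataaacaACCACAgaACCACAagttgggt
Runx2: cacaaacaACCACAgaACCACAagtgcggt
Runx3: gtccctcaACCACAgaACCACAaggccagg
The Runx1 stretch lies at chr16:92826025-92826054 on the minus strand, and its pair begins at base 29 of the transcript, within an annotated exon. The Runx2 stretch lies at chr17:44814583-44814612 on the minus strand, and its pair begins at base 24 of the transcript, also within an exon. In Runx3, at chr4:135120503-135120532 on the plus strand, the pair begins 134 bases before the start, upstream of the annotated exons.

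The pair was noticed in the sequences and then searched for. ACCACA in either orientation was found in 3 of the 12 windows of members, and in 16.8% of all 32851 windows. The pair itself, with GA between its motifs, was found in either orientation in 4 of these windows, which is 0.0122%. The fourth belongs to Gm16225, a noncoding gene on the opposite strand whose window overlaps that of Runx3, so it is the same piece of DNA. Gm16225 was listed at 0.25 and 0.30 FPKM in controls, and at 0.00 and 0.90 FPKM with Brg1 deleted. Runx1 and Runx3 each had a second window, at an internal start, without an ACCACA match. E-boxes, searched as CANNTG, stood in 9 of the 12 member windows and in 72.3% of all windows, so they did not set the members apart. There were 12 windows for 8 of the 10 members, with Id1 and Tcf4 not among them. The motif matches are a description of the letters and say nothing about which factors were bound in these cells.

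Smarca4 was at 17.07 and 16.73 FPKM in controls, and Brg1-deficient ILC3s had 9.98 and 9.03 FPKM, or 56.2% of the control mean. This log2 fold change was -0.77 (SE 0.164, adjusted p = 0.153 from limma). The loss of Brg1 thus appears in these gene-level values as a partial decrease that did not pass the adjusted threshold. Gene-level values do not separate exons, so the extent of deletion cannot be read from them. For mice of the donor genotype, the paper reports efficient loss of Brg1 in ILC3s by RT-PCR and flow cytometry. The sorted FPKM values were nearly the same in all 4 libraries, as quantile normalization leaves them, with 99.3% of ranks above 1 FPKM differing by under 1%. Depth is therefore unknown, and a difference in total RNA between groups would not be visible. ILC3 markers were present throughout: the lowest value over the 4 libraries was 208.97 FPKM for Il23r and 242.1 FPKM for Kit. In bulk RNA such as this, fewer cells of a type and less RNA per cell cannot be told apart.

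By level, Id2 stood above every other member. It was followed by Runx1 and Runx3, whose ranges over the 4 libraries overlapped (44.81 to 70.56 FPKM and 48.12 to 59.12 FPKM). Tcf4 lay below both within each group. Runx2 and Tcf12 came next, overlapped with each other, and reached the Brg1-deficient level of Tcf4. Cbfb lay below both, and its highest value of 14.73 FPKM was under the lowest of Runx2, 16.08 FPKM. Tcf3 and Id3 overlapped at 1.99 to 5.54 FPKM, and Id1 stayed under 1 FPKM.

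**Figure D1:**
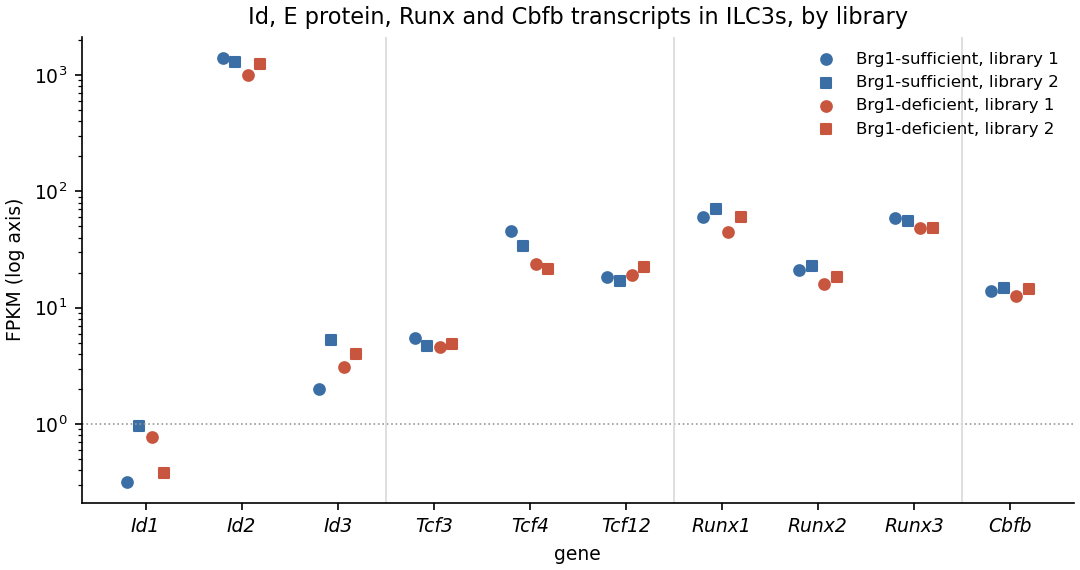
FPKM of the 10 genes on a log axis, with 1 point per library, circles for library 1 and squares for library 2 of each group, blue for Brg1-sufficient and red for Brg1-deficient. The dotted line marks 1 FPKM, under which all 4 values of Id1 lie, while Id2 lies at 1002.28 FPKM or above and Tcf4 shows the clearest separation between the groups.

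Of the 10 genes, 9 had a mean above 1 FPKM in either group and were tested with limma on log2(FPKM + 1), together with all 14739 genes above that limit. Adding 1 understates the change of genes at low FPKM. None of the 9 had an adjusted p under 0.05, a threshold that 0.305% of all genes tested passed, and 1, Tcf4, had an unadjusted p under 0.05, as did 12.6% of all genes. Of the 9, 7 had a log2 fold change below 0 and 2 above it, where 46.5% of all genes tested were below 0. The median over the members was -0.24, and over all genes tested 0.03. The groups did not overlap in 5 members, a separation that 44.6% of all genes tested also showed. Of these 5, 4 were lower and 1 was higher in Brg1-deficient ILC3s, against 20.2% and 24.4% of all genes. An exact two-sided permutation test of 2 libraries against 2 cannot give a p below 0.333, so the p-values given depend on limma's pooling of the spread over genes.

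**Figure D2:**
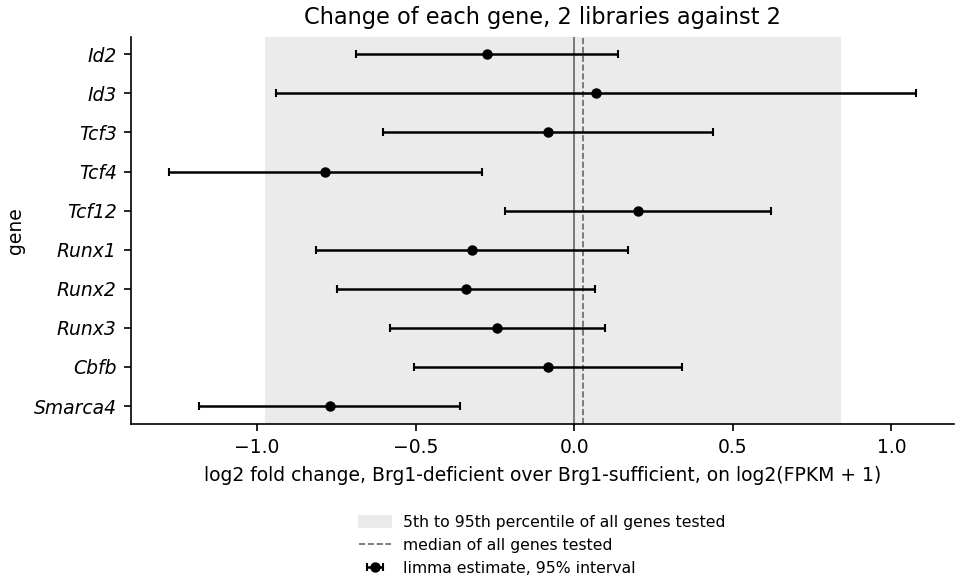
Log2 fold change (Brg1-deficient over Brg1-sufficient, on log2(FPKM + 1)) of the 9 genes tested and of Smarca4, with points for limma estimates and bars for 95% intervals. The shaded band runs from the 5th to the 95th percentile of all genes tested (-0.97 to 0.84), every point lies in it, and among the 9 the interval of Tcf4 alone stays clear of 0.

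The Id family was, in transcript terms, almost entirely Id2. Id2 (GRCm38 chr12:25093799-25097140) encodes the inhibitor on which innate lymphoid cells depend. It was at 1400.46 and 1301.80 FPKM in controls and at 1002.28 and 1242.63 FPKM after deletion of Brg1. Both Brg1-deficient values lay under both controls, but library 2 came close to the lower control. The Brg1-deficient mean was 83.1% of the control mean, and the log2 fold change of -0.27 (SE 0.164, 95% interval -0.69 to 0.14) did not pass the test (adjusted p = 0.566 from limma). By its mean over the 4 libraries, Id2 ranked 70 among the genes tested, and 0.468% of them were above it.

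Id3 (chr4:136143497-136145755), which restrains E proteins in T and B cells, was at 1.99 and 5.26 FPKM in controls, with 3.10 and 4.02 FPKM in Brg1-deficient ILC3s. The Brg1-deficient values lay between the controls. Its log2 fold change was 0.07, the interval of -0.94 to 1.08 was the widest of the members, and the estimate turned to -0.46 without Brg1-sufficient library 1 and to -0.08 without Brg1-deficient library 2. Id1 (chr2:152736251-152737410), an inhibitor better known from stem cells and endothelium, was listed at 0.32 and 0.97 FPKM in controls and 0.78 and 0.38 FPKM in Brg1-deficient ILC3s. It was under the limit and was not tested.

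The 3 Id genes summed to 1403 and 1308 FPKM in controls and to 1006 and 1247 FPKM in Brg1-deficient ILC3s. Id2 made up between 99.5% and 99.8% of this sum in every library. The family total therefore has the pattern of Id2, and no shift from one Id gene to another was seen in it.

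Tcf4 had the largest difference among the 9 genes tested. This E protein gene, on chromosome 18, reached 45.98 and 33.95 FPKM in controls, as against 23.75 and 21.34 FPKM in Brg1-deficient ILC3s. The Brg1-deficient libraries were close to each other and both lower than either control, while the controls were further apart. The means were 39.97 ± 8.51 and 22.55 ± 1.70 FPKM (SD, n = 2 each), so that Brg1-deficient ILC3s had 56.4% of the control level. On the log2 scale the change was -0.79 (SE 0.196, 95% interval -1.28 to -0.29), with an unadjusted p of 0.00886 and an adjusted p of 0.205 from limma. With any library left out it stayed from -0.999 to -0.57, but the unadjusted p from limma rose to 0.0729 without Brg1-deficient library 1 and to 0.102 without Brg1-deficient library 2. It was 0.0372 and 0.0122 without Brg1-sufficient library 1 and 2.

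The other E protein genes did not show this difference. Tcf12 (chr9:71842688-72111871), which encodes HEB, a partner in thymocyte development, was at 18.47 and 16.97 FPKM in controls and 18.95 and 22.17 FPKM in Brg1-deficient ILC3s. Here both Brg1-deficient values were above both controls, by a small margin for library 1. Its log2 fold change was 0.20 (SE 0.166, 95% interval -0.22 to 0.62, adjusted p = 0.651 from limma). Tcf3 (chr10:80409514-80433647), the E protein gene of early B cell commitment, was at 5.54 and 4.68 FPKM in controls and 4.62 and 4.89 FPKM in Brg1-deficient ILC3s. These ranges overlapped. The log2 fold change of Tcf3 was -0.08 (95% interval -0.60 to 0.44), and 0.02 without Brg1-sufficient library 1.

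The make-up of the E protein pool differed between the groups accordingly. FPKM is per length, so the genes were summed, with the limit that the values look quantile normalized. Tcf4 gave 65.7% and 61.1% of the E protein sum in Brg1-sufficient libraries, against 50.2% and 44.1% in Brg1-deficient ones. Tcf12 gave 26.4% and 30.5%, against 40.05% and 45.8%. Tcf3 took the remainder, from 7.92% to 10.1%. Stated as a ratio, Tcf4 over Tcf12 was 2.489 and 2.001 in controls and 1.253 and 0.963 in Brg1-deficient ILC3s, and in Brg1-deficient library 2 Tcf12 was thus the higher of the pair.

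The summed level of the E protein genes was 69.99 and 55.60 FPKM in controls and 47.32 and 48.40 FPKM in Brg1-deficient ILC3s, for means of 62.8 ± 10.2 and 47.9 ± 0.76 FPKM (SD, n = 2 each). Without Tcf4, the sum was 24.01 and 21.65 FPKM against 23.57 and 27.06 FPKM, and the groups overlapped. The Id sum was 20.0 and 23.5 times the E protein sum in Brg1-sufficient libraries and 21.3 and 25.8 times in Brg1-deficient ones. These ratios overlapped, since both sums were lower in Brg1-deficient ILC3s. No test was run on sums, shares or ratios, and they are ratios of transcripts, not of proteins.

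**Figure D3:**
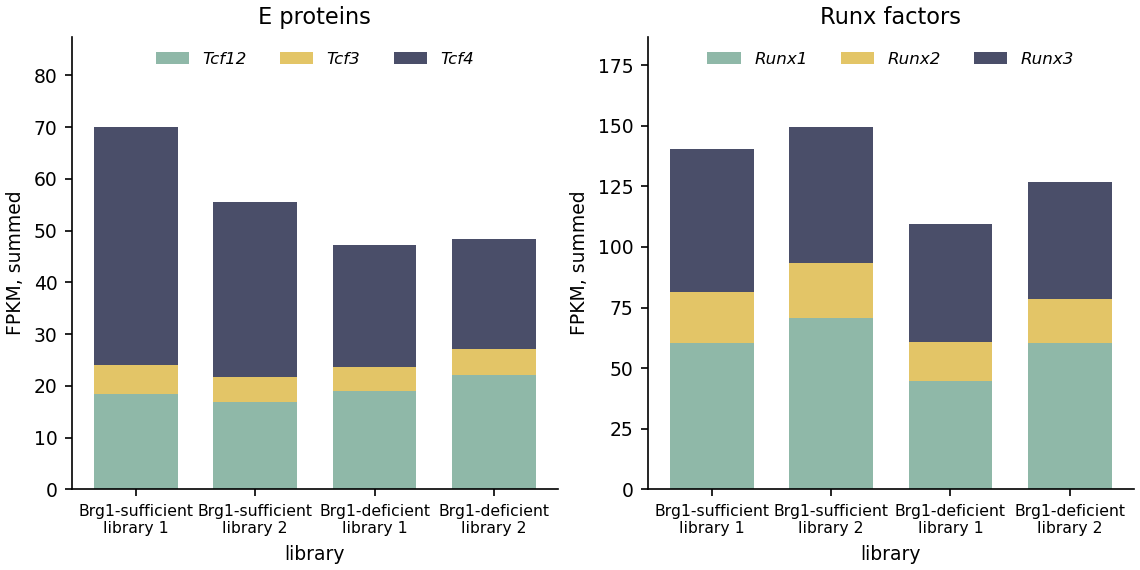
Stacked bars of summed FPKM per library for the E protein genes (left) and the Runx genes (right). In the E protein panel the Tcf4 segment shrinks from 45.98 and 33.95 FPKM in controls to 23.75 and 21.34 FPKM, whereas in the Runx panel the segments keep similar proportions.

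Several marker lists of other cells were also lower in Brg1-deficient ILC3s, and their part in the Tcf4 difference was not tested. Donors lacked Rag1 and hosts lacked Rag2, and each of these genes is needed to make T and B cells. In these cells sorted as Thy1.2 high, the macrophage marker Lyz2 was at 64.44 to 202.51 FPKM over the 4 libraries. Of 10 plasmacytoid dendritic cell markers, the 6 that were tested all had log2 fold changes below 0 with an unadjusted p under 0.05 (6.47% of all genes tested were called in that direction). Their list summed to 348.9 and 347.3 FPKM in controls and to 145.4 and 144.6 FPKM in Brg1-deficient libraries, most of it Bst2, an interferon-inducible gene that many cells express. The other 4 markers were at low values in both groups: Siglech was at 0.38 FPKM or below, Cox6a2 at 0 in every library, Klk1 at 0.35 FPKM or below and Spib at 0.88 FPKM or below. Among the 6 tested, Ly6d was at 23.30 and 14.68 FPKM in controls and 0.85 and 2.48 FPKM in Brg1-deficient ILC3s. Lag3, which activated lymphocytes also express, was at 13.17 and 18.03 FPKM against 3.04 and 2.25 FPKM, and Pacsin1 was at 4.84 and 3.41 FPKM against 0.39 and 0.33 FPKM. These were lower in both Brg1-deficient libraries and kept an unadjusted p under 0.05 in all 4 fits with a library left out. Ccr9 was at 5.74 and 7.02 FPKM against 4.46 and 2.28 FPKM. Irf8 was at 35.14 and 58.83 FPKM in controls and 19.23 and 15.13 FPKM in Brg1-deficient ILC3s.

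T cell markers, all 10 tested and all with a log2 fold change below 0, summed to 506.0 and 328.7 FPKM in controls and to 208.4 and 181.7 FPKM in Brg1-deficient libraries, and 6 of them had an unadjusted p under 0.05. Trbc1 was at 110.42 and 62.51 FPKM in controls and 10.62 and 10.25 FPKM in Brg1-deficient ILC3s (adjusted p = 0.0414 from limma). Trbc2 was at 185.57 and 146.1 FPKM against 74.74 and 56.75 FPKM (adjusted p = 0.092 from limma). Lat differed little, at 114.77 and 90.70 FPKM against 113.07 and 88.87 FPKM, and the groups also overlapped for Trac and Cd8b1. ILC2 markers summed to 451.4 and 251.7 FPKM against 125.2 and 155.8 FPKM, with 7 of the 10 tested lower and 1 higher at an unadjusted p under 0.05. In both lists, as for Tcf4, Brg1-sufficient library 1 was the highest of the 4. Dendritic cell and macrophage markers summed to 1613 and 1736 FPKM in controls and to 490.2 and 1112 FPKM in Brg1-deficient libraries, with 4 of 11 tested lower and 1 higher. ILC1 and NK cell markers summed to 464.4 and 452.0 FPKM against 659.0 and 492.8 FPKM, with 6 of 13 lower and 3 higher. Their median log2 fold change was -1.12, with 10 genes below 0 and 3 above. Gzma, 1 of these 3, had the list's largest value in both Brg1-deficient libraries. It was at 50.77 and 102.83 FPKM in controls and 397.13 and 217.71 FPKM in Brg1-deficient ILC3s. Of the ILC3 markers, all 12 were tested, 3 were lower and 2 higher. Leaving out 1 library moved these counts. The number lower fell to 2 for T cell markers and to 1 for ILC2 markers without Brg1-deficient library 1, and to 2 for ILC2 markers without Brg1-deficient library 2. For dendritic cell and macrophage markers it fell to 0, with 0 higher, without Brg1-sufficient library 2, and to 1 without Brg1-sufficient library 1 or Brg1-deficient library 1, while the median log2 fold change ranged from -1.01 to 0.07. For ILC1 and NK cell markers it fell to 3 without Brg1-deficient library 1. The number of T cell markers lower was 3 without either Brg1-sufficient library.

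In the lists of B and plasma, mast, endothelial, stromal and epithelial cells, between 1 and 4 genes were tested. Cd79b, which encodes a B cell receptor chain, was at 8.68 and 10.02 FPKM in controls and 1.03 and 0.99 FPKM in Brg1-deficient ILC3s (adjusted p = 0.0386 from limma, and 0.102 to 0.375 with a library left out). Ighm, the other B cell gene tested, was at 22.88 and 14.96 FPKM against 33.16 and 47.76 FPKM (adjusted p = 0.221 from limma). Krt18 and Krt8, keratin genes, were higher at an unadjusted p under 0.05, at 2.02 and 3.48 FPKM against 15.72 and 12.92 FPKM and at 0.44 and 0.38 FPKM against 2.65 and 2.34 FPKM. Of the endothelial markers, Pecam1, which leukocytes also express, was at 62.25 and 87.92 FPKM against 65.72 and 63.97 FPKM, while Cdh5 was at 0.29 FPKM or below and Tek at 0.08 FPKM or below. No mast cell, endothelial or stromal marker was called with all 4 libraries.

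All Runx genes had lower means in Brg1-deficient ILC3s, at 78.1% to 84.2% of the control mean, and none passed the test. Runx3 (chr4:135120652-135177990) was at 59.12 and 55.81 FPKM in controls and 48.66 and 48.12 FPKM in Brg1-deficient ILC3s. Libraries of 1 group differed little, and the groups were apart. Its log2 fold change was -0.24 (SE 0.135, 95% interval -0.58 to 0.10, adjusted p = 0.533 from limma), and leaving out any library gave -0.28 to -0.20.

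Runx1 (chr16:92601466-92826149) was at 60.20 and 70.56 FPKM in controls and 44.81 and 60.20 FPKM in Brg1-deficient ILC3s. The higher Brg1-deficient library thus equalled the lower control, and the groups were counted as overlapping. The log2 fold change was -0.32 (SE 0.195, 95% interval -0.81 to 0.17, adjusted p = 0.572 from limma). Leaving out any library gave from -0.53 to -0.11. Of its 12025 exonic bases, 106 are shared with the antisense gene Gm26626, which was at 0.40 to 1.40 FPKM.

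Runx2 (chr17:44495987-44814797) was at 21.04 and 22.96 FPKM in controls and 16.08 and 18.27 FPKM in Brg1-deficient ILC3s. Both Brg1-deficient libraries lay under both controls. Its log2 fold change of -0.34 (SE 0.162, 95% interval -0.75 to 0.07) was the largest of the Runx genes in size, with an unadjusted p of 0.0845 and an adjusted p of 0.472 from limma. Runx2 shares 519 of 8837 exonic bases with the antisense gene Runx2os1, which was at 0.62 to 1.07 FPKM, and since the counting is not stated to use strand, reads of such shared bases cannot be told apart. Transcripts from the distal starts, where the paired motifs lie, and from internal starts were not separated in these gene-level values.

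Cbfb (chr8:105170674-105217989), the partner that stabilises Runx proteins on DNA, was at 14.01 and 14.73 FPKM in controls and 12.59 and 14.51 FPKM in Brg1-deficient ILC3s. The groups overlapped. Its mean in Brg1-deficient ILC3s was 94.3% of the control mean, and its log2 fold change of -0.08 (95% interval -0.50 to 0.34) was 0.01 without Brg1-deficient library 1.

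The Runx genes summed to 140.4 and 149.3 FPKM in controls and to 109.5 and 126.6 FPKM in Brg1-deficient libraries, or 81.5% of the control mean. The shares of Runx1 and Runx3 in this sum overlapped between the groups, and that of Runx2 differed by little. Runx1 gave 42.9% and 47.3% of the sum in controls and 40.9% and 47.6% in Brg1-deficient ILC3s, and Runx3 gave 42.1% and 37.4% against 44.4% and 38.0%. Runx2 gave 15.0% and 15.4% against 14.7% and 14.4%. The Runx sum was 10.02 and 10.14 times the level of Cbfb in controls and 8.70 and 8.72 times in Brg1-deficient ILC3s, so the ratio was lower in both Brg1-deficient libraries and varied little within a group.

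Genes with the pattern most like that of Id2 and of Runx3 were sought among the 9095 genes with a mean above 5 FPKM in either group. Likeness was the Euclidean distance between log2(FPKM + 1) values of the 4 libraries, each gene centred on its own mean. For Id2 the nearest were Pitpna (distance 0.0325), Kctd5 (0.0460) and Ndufb4 (0.0468). Pitpna, a phosphatidylinositol transfer protein gene, was at 14.21 and 12.82 FPKM in controls and 9.56 and 12.28 FPKM in Brg1-deficient libraries, the same order of libraries as Id2 at a far lower level. For Runx3 the nearest were Gstm4 (0.0257), Ncoa6 (0.0295) and Srp68 (0.0310). Ncoa6, a nuclear receptor coactivator gene, was at 7.34 and 7.09 FPKM against 5.97 and 5.97 FPKM. The names describe likeness over these 4 libraries alone.

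The partners and known targets of these factors were taken from short lists. Of 21 helix-loop-helix partners and related factors, 9 were tested, and at an unadjusted p under 0.05 from limma 2 were lower and 2 higher, where 6.47% and 6.12% of all genes were called lower and higher. The median log2 fold change of the 9 was -0.23. Hey1, a Notch-induced repressor of the same protein class, was at 7.96 and 3.68 FPKM in controls and 1.34 and 1.28 FPKM in Brg1-deficient ILC3s (log2 fold change -1.49, adjusted p = 0.199 from limma). Bhlhe40, a basic helix-loop-helix repressor that promotes cytokine production in T cells, was at 1293 and 1121 FPKM and at 767 and 687 FPKM (log2 fold change -0.73, adjusted p = 0.148 from limma). Both were lower in each Brg1-deficient library than in either control. In controls, Bhlhe40 was not far below Id2 in level.

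Lef1 and Hes1 were higher. Lef1, which binds DNA with beta-catenin in early lymphoid cells, was at 5.21 and 5.87 FPKM in controls and 15.85 and 10.46 FPKM in Brg1-deficient ILC3s (log2 fold change 1.09, adjusted p = 0.174 from limma). Hes1, a Notch target that represses other regulators, was at 26.73 and 24.31 FPKM against 41.03 and 78.71 FPKM (log2 fold change 1.13, adjusted p = 0.245 from limma). When 1 library was left out, Hes1 and Hey1 kept an unadjusted p under 0.05 in 2 of 4 fits, Lef1 in 1 and Bhlhe40 in 3.

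Groucho corepressors, which Runx and Hes proteins recruit, were listed with 7 symbols, of which 6 were in the table and 5 were tested. Tle3 was lower, at 19.49 and 25.04 FPKM in controls and 13.85 and 15.76 FPKM in Brg1-deficient ILC3s (log2 fold change -0.55, adjusted p = 0.339 from limma). It kept an unadjusted p under 0.05 in 1 of the 4 fits with a library left out. The median over the 5 was 0.06, close to that of all genes.

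Among 20 genes taken as E protein targets, 12 were tested, of which 1 was lower and 2 were higher at an unadjusted p under 0.05, with a median log2 fold change of -0.03. Cd4, which marks a subset of ILC3s, was at 43.55 and 32.75 FPKM in controls and 25.22 and 19.76 FPKM in Brg1-deficient ILC3s (log2 fold change -0.73, adjusted p = 0.259 from limma). Dtx1, a Notch pathway gene, was at 12.05 and 12.36 FPKM against 15.77 and 22.40 FPKM (log2 fold change 0.59, adjusted p = 0.359 from limma). Hes1 was the other higher gene. Cd4 and Dtx1 each kept an unadjusted p under 0.05 in 1 of 4 fits with a library left out. The early lymphoid targets Rag1, which all donors lacked, Pax5 and Ebf1 were at 0.38 FPKM or below in every library.

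Among the lists of partners and targets, the Runx targets were the longest list and held the most genes called. All lists were chosen with earlier results of these data known. The counts below therefore describe the list and are no test of Runx activity. Of 22 listed, 19 were tested, and 6 were lower and 3 higher at an unadjusted p under 0.05. Of all genes tested, 6.47% were called lower and 6.12% higher at that threshold. The median log2 fold change of the list was -0.49, against 0.03 over all genes. At an adjusted p under 0.05, 1 was lower and 1 was higher, where 0.224% of all genes were called lower and 0.0814% higher. These were Ifng, the type 1 cytokine (22.75 and 37.28 FPKM in controls, 3.42 and 3.22 FPKM in Brg1-deficient ILC3s, adjusted p = 0.0386 from limma), and Il2, the T cell growth factor (4.58 and 7.98 FPKM against 59.32 and 59.59 FPKM, adjusted p = 0.0383 from limma). With a library left out, the adjusted p from limma lay between 0.0982 and 0.432 for Ifng and between 0.0861 and 0.415 for Il2, in the same direction each time.

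Other Runx targets were lower or higher without an adjusted p under 0.05. Il4, a type 2 cytokine that Runx3 silences in T cells, was at 13.40 and 5.18 FPKM in controls and 0.26 and 0.24 FPKM in Brg1-deficient ILC3s (log2 fold change -2.92). Prf1, the perforin gene, was at 3.32 and 4.17 FPKM against 0.45 and 0.36 FPKM (log2 fold change -1.75), and Tbx21, which encodes T-bet, was at 4.21 and 6.04 FPKM against 1.28 and 0.90 FPKM (log2 fold change -1.54). All of these were lower in both Brg1-deficient libraries. Csf2, which encodes GM-CSF, was at 244.95 and 199.70 FPKM in controls and 564.24 and 638.06 FPKM in Brg1-deficient ILC3s (log2 fold change 1.44, adjusted p = 0.0572 from limma). Il4, Prf1, Tbx21 and Csf2 kept an unadjusted p under 0.05 in all 4 fits with a library left out. The list mixes genes that Runx proteins activate and genes they silence, and several of its genes also stand in the marker lists, such as Il4 and Gata3 for ILC2s and Tbx21, Prf1 and Gzmb for ILC1s and NK cells.

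Id genes are classical targets of BMP signalling through SMAD proteins, and other such targets were looked at for that reason. Of 6 listed, 3 were tested, and 2 were lower at an unadjusted p under 0.05. Smad7, an inhibitor of the pathway, was at 7.83 and 6.57 FPKM in controls and 3.21 and 4.26 FPKM in Brg1-deficient ILC3s (log2 fold change -0.80, adjusted p = 0.251 from limma). Bambi, a decoy receptor, was at 8.50 and 7.80 FPKM against 5.01 and 4.73 FPKM (log2 fold change -0.64, adjusted p = 0.264 from limma). The log2 fold changes stayed at -0.96 to -0.64 for Smad7 and at -0.69 to -0.58 for Bambi with a library left out, while Smad7 kept an unadjusted p under 0.05 in 0 of the 4 fits with a library left out, and Bambi in 1.

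**Figure D4:**
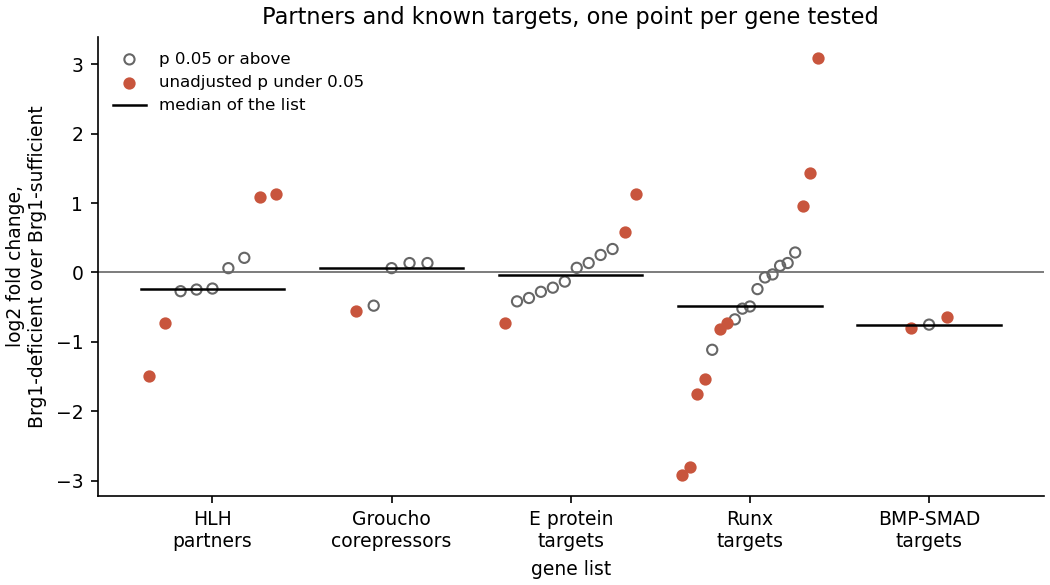
Log2 fold change (Brg1-deficient over Brg1-sufficient, on log2(FPKM + 1)) of every gene tested in the lists of partners and targets, with filled points for an unadjusted p under 0.05 from limma, open points for the rest and a bar at each list's median. The Runx targets spread widest, from -2.92 for Il4 to 3.09 for Il2, with a median of -0.49, while the E protein targets centre near 0.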

How the data were processed

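ILC3s of mixed bone marrow chimeras were profiled by RNA-seq, with 2 libraries per genotype. The authors mapped reads to GRCm38.p5 with STAR 2.5, quantified GENCODE genes with RSEM 1.2, tested counts with edgeR, and deposited one FPKM value for every gene in every library. Read counts were not used here, so edgeR could not be applied, and depth and counting error are unknown. The values already had nearly equal distributions, so no scaling was added. Genes with a mean above 1 FPKM in either group were tested in R 4.3.3 on log2(FPKM + 1), two-sided, with limma 3.58.1 and its eBayes step set to use a trend, with Benjamini-Hochberg adjustment over all 14739 of them. p-values measure the spread between these libraries. Fits were tested on simulated data.

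The genes and lists were chosen with earlier results of these data known. Named from lists were genes with an unadjusted p under 0.05, at most 6 per list by size of change. Single markers, Rag1, Pax5 and Ebf1 were named after their values were seen, as was the paired Runx motif. Positions came from GENCODE (GRCm38), promoter windows from RefSeq. Alternatives were a pseudocount of 0.1, other limits, scalings and priors, a replicate block, and leaving out each library. Some items are not reported here.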

Additional observations from a re-analysis of the deposited data

How the results depend on the processing

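At an adjusted p under 0.05 (limma), the fit reported called 33 genes lower and 12 higher. With a limit of 5 FPKM these were 73 and 41 of 9095 tested. With no filter on low FPKM both were 0 of 44235 tested (1400 and 1308 at an unadjusted p under 0.05), and without the trend both were 0 (965 and 903 unadjusted). Leaving out each library gave 0 to 0 in both directions (507 to 1675 lower and 735 to 1507 higher unadjusted), with fewer libraries in each fit. The numbers 1 and 2 are not stated to pair libraries, shared hosts cannot be told from the labels, and the numbers were not taken to pair libraries. The deviations of same-numbered libraries had a correlation of -0.000386. This value is over all genes tested, so it cannot exclude a pairing that shows in few of them. Some macrophage markers followed the number in both groups (Lyz2 at 84.11 and 202.51 FPKM in controls and 64.44 and 191.92 FPKM in Brg1-deficient libraries). Fitting the library number as a block called 248 lower and 150 higher. Tcf4 then had an adjusted p of 0.0657 from limma. In all these settings 0 members had an adjusted p under 0.05. Leave-one-out log2 fold changes ranged from -0.46 to 0.60 for Id3, where the sign turned to -0.46 without Brg1-sufficient library 1 and to -0.08 without Brg1-deficient library 2. They ranged from -0.18 to 0.02 for Tcf3, where the sign turned to 0.0185 without Brg1-sufficient library 1, and from -0.18 to 0.01 for Cbfb, where it turned to 0.0135 without Brg1-deficient library 1. The cause was not tested. The range was -0.43 to -0.12 for Id2, -0.999 to -0.57 for Tcf4, 0.09 to 0.31 for Tcf12, -0.53 to -0.11 for Runx1, -0.43 to -0.25 for Runx2 and -0.28 to -0.20 for Runx3. The log2 ratio of the groups stayed below 0 for the E protein sum (-0.55 to -0.22), the Runx sum (-0.40 to -0.19) and the share of Tcf4 (-0.52 to -0.34), and changed sign for the Id sum over the E protein sum (-0.03 to 0.25). Depth is unknown, so its part in the spread of the low genes was not tested.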
